A study of Mus musculus with 48 samples.

Results

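The 10 genes described here encode acute phase proteins made by the liver: the orosomucoids Orm1, Orm2 and Orm3, the serum amyloid A genes Saa1, Saa2, Saa3 and Saa4, the lipocalin Lcn2, haptoglobin (Hp) and hemopexin (Hpx). They were picked out by gene symbol, with earlier results of these data known, and are 10 of the 49315 genes in the expression table. Levels are in TPM, transcripts per unit of library total after correction for transcript length. All 10 were among the 15820 genes that passed a filter of at least 1 TPM in at least 6 libraries. The table covers livers of C57BL/6J mice in 8 groups of 6, made by crossing sex, a low-fat (LFD) or high-fat diet (HFD), and a weekly dose of a mixture of dioxin-like compounds or vehicle. The mixture held TCDD (10 ng/kg), the furan PeCDF (80 ng/kg) and the polychlorinated biphenyl PCB126 (140 ng/kg), all ligands of the aryl hydrocarbon receptor, and livers were taken after 12 weeks. The animals' age is not stated in the labels used here. Diet changes compare HFD with LFD mice of the same sex and treatment. Mixture changes compare mixture with vehicle mice of the same sex and diet.

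The acute phase response is a program in which hepatocytes raise the secretion of a set of plasma proteins when cytokines signal inflammation. Interleukin-6 acts through STAT3 and interleukin-1 and tumor necrosis factor through NF-kB, and both routes work together with C/EBP factors at the promoters of these genes. Orosomucoids are abundant plasma glycoproteins that bind drugs and lipids, serum amyloid A proteins ride on high-density lipoprotein, Lcn2 captures the iron carriers (siderophores) of bacteria, and haptoglobin and hemopexin bind free hemoglobin and heme.

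The genes lie in 2 clusters and 3 single loci on GRCm38. Orm1, Orm3 and Orm2 follow each other on chromosome 4 from 63344560 to 63365878, all on the plus strand. Saa3, Saa4, Saa1 and Saa2 lie on chromosome 7 from 46711998 to 46754313, with Saa2 on the plus strand and the others on the minus strand. Hpx is on chromosome 7 from 105591613 to 105600137, Lcn2 on chromosome 2 from 32384633 to 32388252 and Hp on chromosome 8 from 109575128 to 109579172, all on the minus strand. Promoters of 8 of the 10 members were taken from RefSeq (GRCm38.p6). In the 250 bases before the start site, the promoters of Saa1 and Saa2 were identical at 95.6% of aligned positions and those of Orm2 and Orm3 at 89.0%. The 6 shown belong to the members with the largest log2 changes in the mean of the 4 diet comparisons, and show bases -250 to -51 before the start site with the match to the C/EBP motif in capitals. For Lcn2 the whole window shown lies inside the gene span given above, because the RefSeq start used lies within that span.

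Saa1 (chr7:46743031-46743230, minus strand): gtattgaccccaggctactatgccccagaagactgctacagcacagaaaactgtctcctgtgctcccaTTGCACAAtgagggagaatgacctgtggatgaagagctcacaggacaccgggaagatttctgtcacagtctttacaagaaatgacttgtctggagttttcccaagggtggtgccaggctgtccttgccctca
Saa2 (chr7:46751583-46751782, plus strand): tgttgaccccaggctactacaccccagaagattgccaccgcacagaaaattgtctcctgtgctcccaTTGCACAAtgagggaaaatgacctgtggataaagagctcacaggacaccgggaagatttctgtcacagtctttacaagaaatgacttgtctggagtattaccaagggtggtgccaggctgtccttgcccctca
Saa3 (chr7:46715727-46715926, minus strand): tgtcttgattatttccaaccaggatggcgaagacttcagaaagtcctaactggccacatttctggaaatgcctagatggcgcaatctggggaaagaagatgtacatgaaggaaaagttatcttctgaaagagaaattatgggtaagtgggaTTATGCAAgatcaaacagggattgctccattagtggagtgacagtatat
Orm2 (chr4:63362199-63362398, plus strand): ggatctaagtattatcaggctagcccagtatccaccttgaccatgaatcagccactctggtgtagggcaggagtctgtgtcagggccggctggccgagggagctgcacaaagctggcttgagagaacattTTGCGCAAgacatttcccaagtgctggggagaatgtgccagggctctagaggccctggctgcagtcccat
Orm3 (chr4:63355908-63356107, plus strand): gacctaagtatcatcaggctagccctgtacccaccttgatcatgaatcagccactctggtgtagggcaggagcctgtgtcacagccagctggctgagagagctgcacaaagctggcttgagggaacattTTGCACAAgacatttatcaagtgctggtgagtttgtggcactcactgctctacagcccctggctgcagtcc
Lcn2 (chr2:32387790-32387989, minus strand): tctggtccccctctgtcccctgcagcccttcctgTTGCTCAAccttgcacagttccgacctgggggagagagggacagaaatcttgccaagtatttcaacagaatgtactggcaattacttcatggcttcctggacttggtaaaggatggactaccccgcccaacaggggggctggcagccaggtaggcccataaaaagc

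The C/EBP motif searched, TTGCNNAA on both strands, was present in the 250 bases before the start site in all 8 promoters, against 9.56% of 32851 promoters. In Saa3 the match lies on the opposite strand, and in Orm2 on both. Saa4 holds 2 separate matches, on opposite strands. A second motif, the STAT site TTCNNNGAA, is held by 7.02% of promoters, and the NF-kB site by 7.25%. Neither had a match in the 8 windows, which says only that these letters are not there. TATAAA (12.4% of promoters) was found in Orm2 and Orm3. A match describes the sequence and was not tied to binding in these livers.

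**Figure D1:**
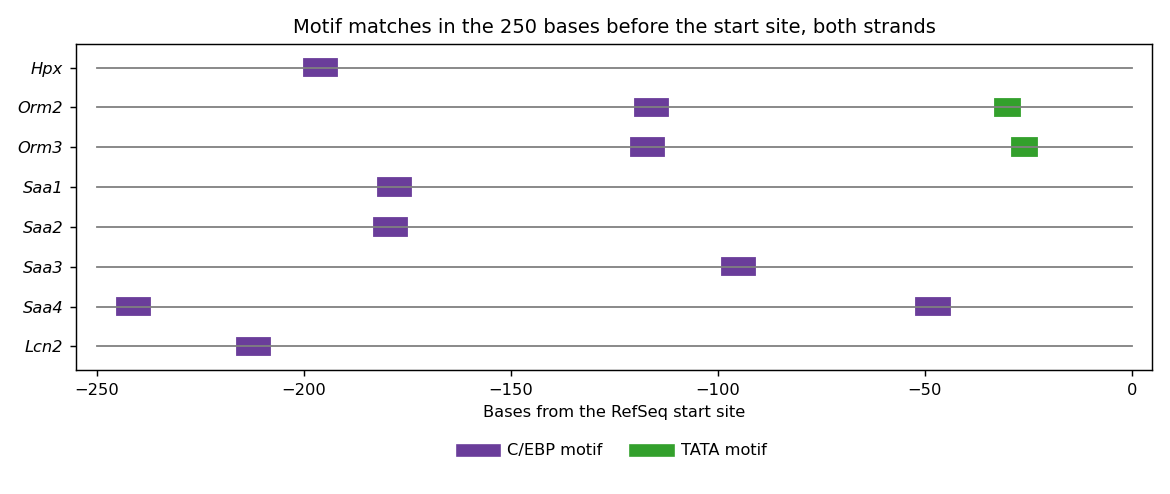
Matches to the C/EBP motif (purple) and TATAAA (green) in 8 member promoters, drawn as bases from the RefSeq start site on the horizontal axis. Saa1 and Saa2 have their C/EBP match at nearly the same distance from the start, as do Orm2 and Orm3.

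The members spanned more than 3 orders of magnitude in level. Hpx (median 4100 TPM over 48 livers), Hp (3518) and Orm1 (1531) were among the 74 most abundant genes of the liver, and each varied little, with a highest liver 1.76 to 3.11 times the lowest. Saa4, whose protein is made without an inflammatory stimulus, had a median of 301 TPM. Saa1 (65.8), Orm2 (62.7), Orm3 (48.9), Saa2 (42.998) and Lcn2 (19.5) came lower and varied much more, from 16.3 times between lowest and highest liver for Orm2 to 438 times for Saa2. Saa3, made mainly outside hepatocytes in macrophages and fat, was lowest, at 0.666 to 8.84 TPM. Neighbours in this order did not all differ beyond their spread. The ranges of Orm2 (12.1 to 197 TPM) and Orm3 (2.39 to 221) overlapped those of Saa1 (9.69 to 2422) and Saa2 (4.61 to 2018), which reached far higher.

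**Figure D2:**
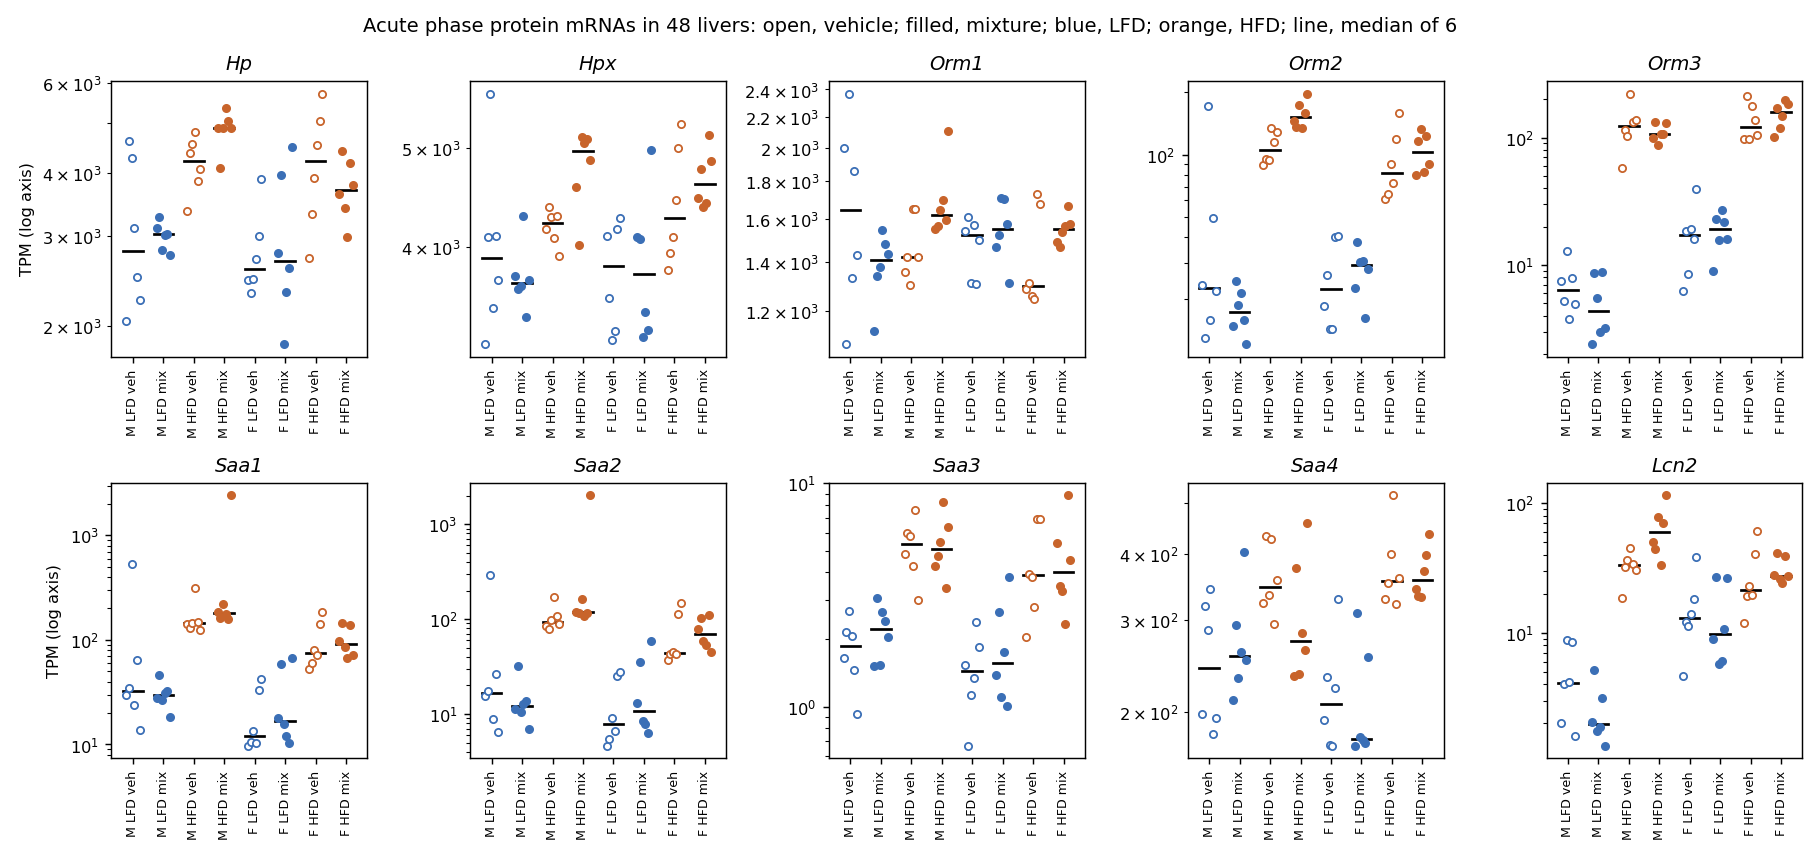
TPM on a log axis in every liver for the 10 members, with the 8 groups on the horizontal axis (M, male; F, female; veh, vehicle; mix, mixture), open points for vehicle, filled points for the mixture, blue for LFD, orange for HFD and a line at the median of 6. All orange points lie above the blue ones of the same sex and treatment for Orm3, group medians are higher on the HFD for Orm2, Saa1, Saa2, Saa3 and Lcn2 with some overlap, and a single liver stands far above its group for Saa1 and Saa2 in the HFD males given the mixture and in the LFD vehicle males.

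Libraries matched their labels for exposure within each diet. On the LFD Cyp1a1, the classic receptor target, was at 1.08 to 2.42 TPM with vehicle and at 62.0 to 195 with the mixture. On the HFD it was at 0.534 to 1.31 and at 2.22 to 8.59 TPM, so the mixture groups lay far lower than on the LFD. Cyp1a2, also used as a check, was at 262 to 774 TPM with vehicle and 1856 to 4006 with the mixture on the LFD. Its values on the HFD were 230 to 480 and 1354 to 2833 TPM. Between 13180 and 14713 genes reached 1 TPM per library, read depth is not part of a TPM table, and Alb, the main hepatocyte transcript, was at 38100 to 117000 TPM. Transcripts of skeletal muscle were high in 3 libraries, and results that rest on them are also given without them. The summed 15 marker genes reached 24440 TPM in a liver of the mixture-dosed HFD males (replicate 6), 9155 in a vehicle LFD female (replicate 3) and 1934 in a mixture-dosed LFD female (replicate 3). Replicate 4 of the LFD vehicle males, which was kept in those fits, was at 775 TPM against a group median of 21.7. The mixture-dosed LFD female also held adrenal cortex transcripts (7 genes summed to 1664 TPM, group median 4.93).

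The first question was whether the mixture moved these genes. None of the 10 members was called in any of the 4 combinations of sex and diet. By limma on log2(TPM + 1), with Benjamini-Hochberg adjustment over all 15820 genes, 0 of 10 changed in LFD males (0.0379% of all genes called) or LFD females (0.0379%). The count was also 0 of 10 in HFD males (0.0948%), HFD females (0.0126%) and the mean of the 4 (0.0948%). At an unadjusted p under 0.05 there were 1, 0, 1, 0 and 0 members. Each alternative processing left it at 0 in these 5 comparisons. The smallest adjusted p of a member was 0.908 in LFD males, 0.81 in LFD females, 0.464 in HFD males, 1.0 in HFD females and 0.729 in the mean. The response to the mixture was also compared between diets. By limma 0 of 10 members passed in males (0.00632% of all genes, 3 members at an unadjusted p under 0.05) and 0 in females (0.00632%, 0 unadjusted). Between the sexes 0 of 10 passed on the LFD (0.0%, 1 unadjusted) and 0 on the HFD (0.0%, 0 unadjusted).

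The values nearest to a difference came from HFD males. Lcn2 was at 18.5 to 44.95 TPM (median 33.4) with vehicle and at 33.3 to 115 (median 60.2) with the mixture, groups that overlapped, with a log2 difference of 0.90 (SE 0.39, adjusted p = 0.464). Orm2 was at 88.8 to 134 TPM (median 105) with vehicle and at 135 to 197 (median 152) with the mixture. These Orm2 values just failed to overlap, 134.4 against 135.0 at the border, as for 0.272% of all genes in this comparison (log2 difference 0.53, SE 0.34, adjusted p = 0.659). In LFD males Orm2 had the opposite sign, -0.81 (SE 0.34, adjusted p = 0.908), with 1 vehicle liver at 171 TPM against 12.1 to 24.3 in the 6 livers given the mixture. The mean difference over the 4 combinations lay between -0.06 and 0.23 for all 10 members, with Saa2 at 0.23 (SE 0.32) and Saa1 at 0.17 (SE 0.29). Those standard errors do not bound small effects on Saa1 and Saa2 tightly.

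Diet gave the large differences. On the HFD, 8 of 10 members rose in vehicle males (31.4% of all genes called, 25.6% called higher), 7 in vehicle females (28.0% called, 14.4% higher). With the mixture, 9 rose in males (38.6% called, 31.7% higher) and 8 in females (19.2% called, 11.5% higher), and none fell in any of the 4. In the mean of the 4 comparisons 9 rose (50.5% of all genes called, 5532 of 15820 called higher). The median log2 change of the members was 1.415, 0.952, 2.036 and 1.113, against 0.114, -0.008, 0.148 and -0.001 for all genes tested. Since the members were chosen with earlier results of these data known, this contrast is a description and not an independent test. Orm2, Orm3, Saa1, Saa2 and Saa3 rose in all 4 comparisons, Saa4, Lcn2 and Hp in 3, Hpx in 2 and Orm1 in 1. All 6 HFD livers lay above all 6 LFD livers for 3 members in vehicle males (13.4% of all genes), 4 in vehicle females (6.11%), 8 in males given the mixture (12.9%) and 4 in females given the mixture (5.91%). With a trimmed-mean scaling of the libraries, which shifts the median change of all genes by -0.117 in vehicle males and -0.154 in males given the mixture, 5, 7, 7 and 7 members were called, and no called member changed direction. Of all 15820 genes, 3894, 4568, 5024 and 3132 were called with scaling. The share of calls that were higher went from 81.5% to 53.2% of all calls in vehicle males and from 82.1% to 49.2% in males given the mixture. Animal numbers in the library names start again for each diet, and the labels do not say whether the diets ran at one time. If they did not, cohort and diet cannot be told apart.

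**Figure D3:**
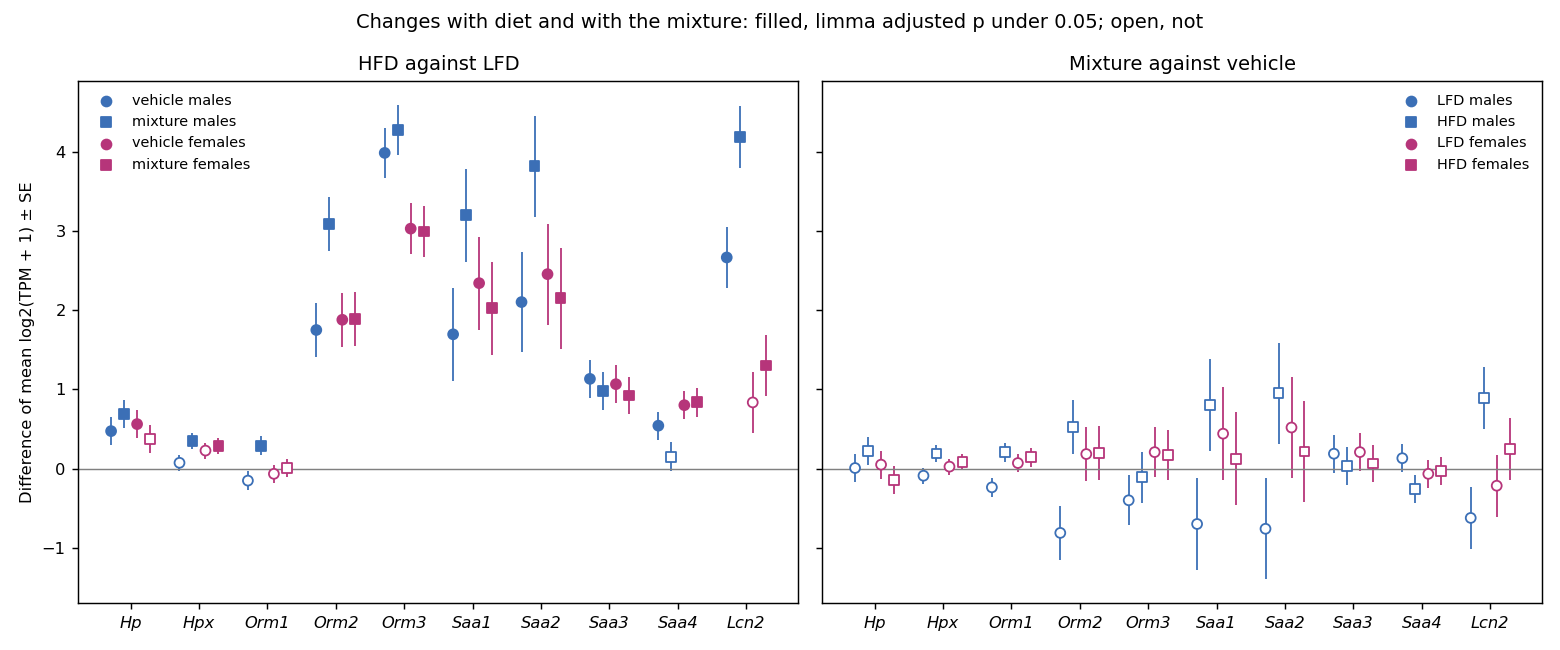
Differences of mean log2(TPM + 1) with their SE for the 10 members, HFD against LFD on the left and mixture against vehicle on the right, in males (blue) and females (magenta), filled where the limma adjusted p was under 0.05. The diet changes reach 4.28 for Orm3 and 4.19 for Lcn2 in males given the mixture, while all mixture differences are open points between -0.81 and 0.95.

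Of the orosomucoid genes, the 2 minor copies rose on the HFD and the major one changed little. Orm3 had the largest change of the members on the log2(TPM + 1) scale in each of the 4 comparisons. On plain TPM in males given the mixture its ratio of medians (24.5) was below that of Lcn2 (30.7), and its ratio of means (21.2) below those of Saa2 (30.2) and Lcn2 (25.6). In vehicle males it was at 3.79 to 12.9 TPM (median 6.33) on the LFD and at 58.1 to 221 (median 124) on the HFD. In vehicle females it was at 6.21 to 39.7 (median 17.1) and 97.7 to 212 (median 121). The diets did not overlap in either sex. Nor did they overlap with the mixture, where males went from 2.39 to 8.72 TPM (median 4.37) on the LFD to 88.1 to 132 (median 107). Females given the mixture went from 8.96 to 27.2 TPM (median 18.97) to 102 to 196 (median 159). The log2 changes were 3.99 and 3.03 in vehicle males and females and 4.28 and 2.99 with the mixture (SE 0.32 for each, the highest adjusted p 2.38e-09).

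Orm2 rose in the same comparisons by less. In vehicle females it was at 14.3 to 40.5 TPM (median 22.2) on the LFD and 60.9 to 159 (median 81.4) on the HFD, without overlap. In vehicle males the HFD livers were at 88.8 to 134 TPM (median 105) and the LFD livers at 12.99 to 171 (median 22.7). They overlapped through replicate 3 of the LFD group alone: that liver was at 171 and the others reached 49.3 at most. With the mixture, males were at 12.1 to 24.3 TPM on the LFD (median 17.3) against 135 to 197 on the HFD (median 152). Females given the mixture were at 16.2 to 37.6 (median 29.1) against 79.3 to 134 (median 103), both without overlap. The log2 changes were 1.75 (vehicle males), 1.88 (vehicle females), 3.09 (mixture males) and 1.89 (mixture females), each with an SE of 0.34 and an adjusted p of at most 8.57e-05.

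Orm1, the copy that supplies most orosomucoid mRNA, stayed between 1081 and 2369 TPM in all 48 livers. Its log2 change with diet was -0.15 in vehicle males, -0.07 in vehicle females and 0.01 in females given the mixture (SE 0.12 for each), and 0.29 in males given the mixture (adjusted p = 0.0467). This last call ended with scaling (0.09, adjusted p = 0.628), with no filter on levels (0.095) and without the 3 muscle-containing libraries (0.23, adjusted p = 0.142). It also ended without the 2 livers highest in Saa1 for their group (adjusted p = 0.0967) and on leaving out any of 8 of the 12 livers, namely replicates 1, 2, 3 and 6 of the LFD group and 3, 4, 5 and 6 of the HFD group (adjusted p up to 0.142). Orm1 therefore made up a smaller share of the summed TPM of the 3 genes on the HFD. Its share was 97.2% ± 2.24 (SD, n = 6) in LFD vehicle males, 97.1% ± 1.42 in LFD vehicle females. With the mixture it was 98.4% ± 0.439 in LFD males and 97.1% ± 0.649 in LFD females. On the HFD it was 86.3% ± 2.73 and 85.9% ± 2.47 in vehicle males and females, and 86.3% ± 0.735 and 85.9% ± 2.09 with the mixture. Groups did not overlap by diet in any of the 4 comparisons (exact two-sided permutation test of the log ratio over 924 splits, p = 0.00216, adjusted p = 0.00216 over the 4, the smallest value this design can give). This test was chosen after the shares had been seen. The 3 genes are related neighbours whose transcripts were not compared here. The labels do not say how reads shared between copies were assigned, so the split between copies can depend on that step. The summed TPM of the 3 genes does not depend on it in this way. It rose in males given the mixture, from 1406 ± 148 to 1961 ± 237 TPM (SD, n = 6, log2 difference 0.48, exact permutation p = 0.00216, adjusted p = 0.026). It did not pass in the other 3 (log2 differences 0.02, 0.11 and 0.18, adjusted p from 0.104 to 0.92).

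**Figure D4:**
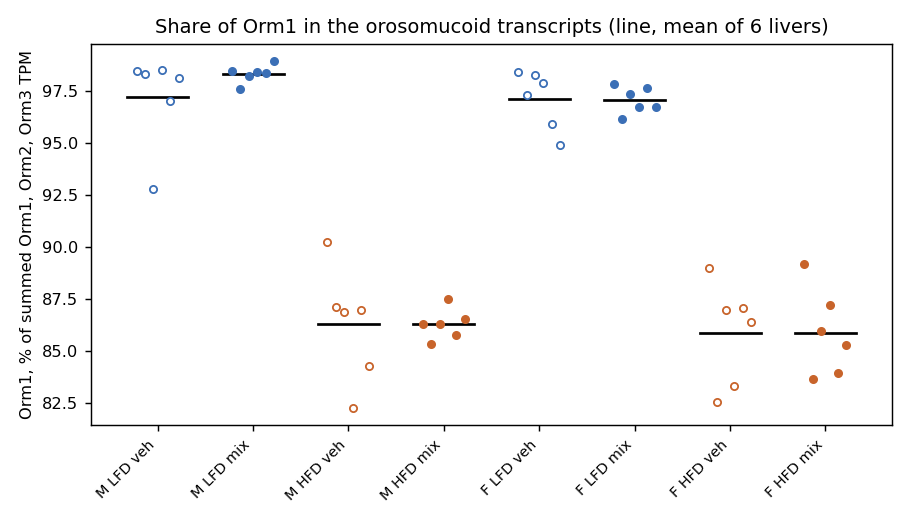
Percentage of the summed Orm1, Orm2 and Orm3 TPM that came from Orm1 in each liver, by group, with a line at the mean of 6, open points for vehicle and filled points for the mixture. LFD livers lie between 92.8% and 98.95% and HFD livers between 82.3% and 90.2%, and vehicle and mixture groups of a diet lie at the same height.

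The inducible serum amyloid genes Saa1 and Saa2 rose together on the HFD. In vehicle females Saa1 was at 9.69 to 41.9 TPM (median 12.0) on the LFD and at 53.0 to 184 (median 75.5) on the HFD. Saa2 was at 4.61 to 27.7 TPM (median 7.87) and 36.99 to 146 (median 44.3). Neither overlapped between diets, and the log2 changes were 2.34 (SE 0.59, adjusted p = 0.00211) and 2.46 (SE 0.64, adjusted p = 0.00291). In females given the mixture the changes were 2.03 for Saa1 (adjusted p = 0.0109) and 2.15 for Saa2 (adjusted p = 0.0129). Saa1 was at 10.2 to 67.1 TPM on the LFD (median 16.8) and 67.8 to 146 on the HFD (median 91.5), which did not overlap. Saa2 overlapped there, at 6.27 to 58.4 TPM on the LFD and 45.1 to 111 on the HFD.

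In males both changes depended on single livers for their size. Among males given the mixture, Saa1 was at 18.1 to 46.7 TPM (median 29.5) on the LFD and at 158 to 2422 (median 181) on the HFD. On the HFD 5 livers were at 158 to 221 and replicate 6 at 2422. Saa1 rose by 3.20 (adjusted p = 2.7e-05) and Saa2 by 3.82 (adjusted p = 5.97e-06), and with that replicate left out by 2.58 and 3.15. In vehicle males Saa1 was at 124 to 317 TPM (median 144) on the HFD and at 13.9 to 532 (median 32.2) on the LFD. On the LFD 5 livers were at 13.9 to 64.5 and replicate 3 at 532. The log2 changes there were 1.70 for Saa1 (adjusted p = 0.0233) and 2.10 for Saa2 (adjusted p = 0.00917), and 2.38 and 2.83 without replicate 3. The Saa1 call in vehicle males ended with scaling (adjusted p = 0.0504), with no filter on levels (0.0532) and in a fit of these 2 groups alone (0.0658). It also ended with replicate 1, 4 or 6 of the LFD group or replicate 4 of the HFD group left out (up to 0.0843).

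Because Saa1 and Saa2 are near-identical copies that can share reads, their summed TPM was tested as well by the exact permutation test. The sum rose by 3.45 on the log2 scale in males given the mixture (adjusted p = 0.00866). In females it rose by 2.44 with vehicle (adjusted p = 0.00866) and by 2.11 with the mixture (adjusted p = 0.0195). In vehicle males the difference was 1.87 and did not pass (exact p = 0.0368, adjusted p = 0.0883). Without the 2 livers highest in Saa1 for their group, a choice made after seeing the data, it was 2.57 there (adjusted p = 0.00866).

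Saa3 and Saa4, the other serum amyloid genes, moved less. Saa3 rose in all 4 comparisons by 0.92 to 1.13 (SE 0.24, the highest adjusted p 0.0042), a size that log2(TPM + 1) understates at levels this low. Vehicle males were at 0.929 to 2.69 TPM (median 1.86) on the LFD and 3.00 to 7.61 (median 5.33) on the HFD, without overlap, while in females the diets overlapped. Saa4 rose in vehicle females from a median of 207 to 355 TPM (0.80, SE 0.18, adjusted p = 0.000626). In females given the mixture it rose from 178 to 357 (0.84, SE 0.18, adjusted p = 0.000576), the latter without overlap. In vehicle males Saa4 rose by 0.54 (adjusted p = 0.0168), a call that ended with scaling (0.39, adjusted p = 0.137) and without replicate 5 or 6 of the LFD group. In males given the mixture its difference was 0.15 (SE 0.18, adjusted p = 0.546).

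Lcn2 had the strongest dependence on sex. In vehicle males it was at 1.58 to 8.86 TPM (median 4.10) on the LFD and 18.5 to 44.95 (median 33.4) on the HFD. In males given the mixture it was at 1.34 to 5.17 (median 1.96) and 33.3 to 115 (median 60.2). Neither pair overlapped, and the log2 changes were 2.67 (SE 0.39, adjusted p = 6.82e-07) and 4.19 (adjusted p = 2.54e-11). In vehicle females Lcn2 was at 4.63 to 38.7 TPM (median 13.03) on the LFD and 11.9 to 61.2 (median 21.4) on the HFD. The groups overlapped, with a difference of 0.84 that did not pass (adjusted p = 0.106). That call depended on single livers, since the difference passed without replicate 6 of the LFD group or replicate 1 of the HFD group (lowest adjusted p 0.027). In females given the mixture it rose from a median of 9.77 to 27.7 TPM (log2 change 1.30, SE 0.39, adjusted p = 0.014), again with overlap.

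Hp and Hpx, which scavenge hemoglobin and heme, changed by less than 2-fold. Hp rose by 0.47 in vehicle males (adjusted p = 0.038), 0.56 in vehicle females (adjusted p = 0.0149) and 0.69 in males given the mixture (adjusted p = 0.00178), with an SE of 0.18 in each. It differed by 0.37 in females given the mixture (adjusted p = 0.144, or 0.0424 without replicate 6 of the LFD group). Only the males given the mixture did not overlap, at 2761 to 3275 TPM (median 3024) on the LFD and 4083 to 5353 (median 4902) on the HFD. The call in vehicle males ended with scaling (0.32, adjusted p = 0.235), without a filter (0.0883) and in a fit of only the 2 groups (0.073). It also ended on leaving out any of 7 of the 12 livers, namely replicates 1, 5 and 6 of the LFD group and 2, 3, 4 and 6 of the HFD group. That in vehicle females ended without replicate 6 of the HFD group (adjusted p = 0.057). Hpx rose by 0.35 in males (adjusted p = 0.00468) and 0.29 in females (adjusted p = 0.0391) given the mixture, calls that ended with scaling (0.16, adjusted p = 0.304, and 0.28, adjusted p = 0.0697). The female call also ended without a filter (adjusted p = 0.0985), with those muscle-containing libraries left out (0.102) and in a fit of only the 2 groups (0.0621). It ended too without replicate 3, 4 or 5 of the LFD or 2, 5 or 6 of the HFD group (up to 0.106). Its differences in vehicle males (0.07) and females (0.23) did not pass (SE 0.10 each, adjusted p = 0.643 and 0.0893).

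The diet change was then compared between the sexes by the interaction term. In vehicle mice 1 of 10 members changed less in females, Lcn2 (14.8% of all genes called in that direction). In mice given the mixture 2 did, Lcn2 and Orm3 (13.4% of all genes). These counts lay near the shares of all genes and say nothing particular about the members as a set. For Lcn2 the difference, females minus males, was -1.83 with vehicle (SE 0.55, limma adjusted p = 0.0164) and -2.88 with the mixture (SE 0.55, adjusted p = 0.000236). It passed under every alternative run and with any single liver left out. For Orm3 the term was -1.28 with the mixture (SE 0.45, adjusted p = 0.042). That Orm3 call ended with scaling (-1.11, adjusted p = 0.114), without a filter (adjusted p = 0.0901) and with the 3 muscle-containing libraries left out (-1.27, adjusted p = 0.0618). It also ended without the 2 livers highest in Saa1 for their group (-1.23, adjusted p = 0.0516) and with any of 13 of the 24 livers left out. With vehicle the Orm3 term was -0.96 (adjusted p = 0.138). Among mice given the mixture, Saa4 (0.69, SE 0.25, adjusted p = 0.0542) and Orm2 (-1.20, SE 0.48, adjusted p = 0.0797) lay near the threshold and passed under 4 and 2 of the 7 alternatives. Saa4 also passed without replicate 1 of the LFD or replicate 2 or 6 of the HFD males, or without replicate 2 or 6 of the LFD females (lowest adjusted p 0.0178).

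These interactions came with a sex difference on the LFD. LFD females were above LFD males for Orm3 and Lcn2 with vehicle (2 of 10 members, 23.7% of all genes called, 17.1% higher) and with the mixture (2 of 10, 21.5% called, 16.6% higher). Both counts lay near the shares of all genes, so the results here are those of the single genes. The log2 differences of Orm3 were 1.11 (SE 0.32, adjusted p = 0.00811) and 1.72 (adjusted p = 7.55e-05), and those of Lcn2 1.52 (SE 0.39, adjusted p = 0.00313) and 1.92 (adjusted p = 0.000273). With the mixture the sexes did not overlap for either gene on the LFD (6.51% of all genes). Orm3 was at 2.39 to 8.72 TPM in males and 8.96 to 27.2 in females, and Lcn2 at 1.34 to 5.17 and 5.77 to 27.1. On the HFD, 0 of 10 members differed by sex with vehicle (11.8% of all genes called, 0 members at an unadjusted p under 0.05) or with the mixture (15.3%, 4 members unadjusted) by limma. A fit of only the 2 mixture groups called 3, Orm2, Lcn2 and Hp, all lower in females, and 2043 genes in all. All 6 females given the mixture on the HFD lay below all 6 males for Saa1 and Orm2 (3.53% of all genes), with limma adjusted p of 0.0748 and 0.24. For Saa2 the sexes overlapped, females reaching 111 TPM and males starting at 107 (adjusted p = 0.118). The summed TPM of Saa1 and Saa2 was lower in females on the HFD with the mixture, 176 ± 60.8 against 994.5 ± 1689 TPM (SD, n = 6, log2 difference -1.49, exact permutation adjusted p = 0.00866). Without the male liver at 2422 TPM of Saa1 the difference was -0.85 (adjusted p = 0.026). Saa1 was lower in LFD vehicle females by a difference near the threshold (-1.48, SE 0.59, adjusted p = 0.0612). This passed with scaling (-1.59, adjusted p = 0.0492) and without replicate 4 or 6 of the males or 5 or 6 of the females. It was -0.79 (adjusted p = 0.3) without replicate 3 of the males. In the mean of the 4 sex comparisons Orm3 (0.85, adjusted p = 3.58e-05) and Lcn2 (0.54, adjusted p = 0.03) were higher and Saa1 lower (-1.04, adjusted p = 0.00505) in females. With 31.2% of all genes called there, the count of members called was near that share. The Lcn2 call ended without a filter (adjusted p = 0.0649) and without replicate 6 of the LFD vehicle, replicate 2 or 6 of the LFD mixture, or replicate 6 of the HFD vehicle females (adjusted p up to 0.0522).

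Livers of a group differed in these genes as a block. Replicate 3 of the LFD vehicle males was the highest of its group for 8 of 10 members, against 13.9% of all tested genes, with Saa1 at 532, Saa2 at 289 and Orm2 at 171 TPM. It was also highest for 12 of 26 other positive acute phase genes and for 8 of 20 early targets of these signals, and likewise for 7 of 16 negative acute phase genes, being lowest for 1. Socs3, the feedback inhibitor of STAT3, was at 77.9 TPM against a group median of 28.7. It was as high, 78.0 TPM, in 1 of the LFD males given the mixture, a group in which Saa1 reached 46.7 TPM at most. The liver highest for the most early targets of all 48, with 12 of 20, was replicate 4 of those males, which led for 2 of 10 members. Among HFD males given the mixture, replicate 6 was highest for 6 of 10 members (18.5% of all genes), with Saa1 at 2422, Saa2 at 2018 and Orm1 at 2106 TPM, and the lowest of its group for none. It was highest for 9 and lowest for 7 of 26 other positive acute phase genes, and highest for 3 and lowest for 9 of 16 negative ones. This liver was also lowest for 9 of 20 early targets, against 25.4% of all tested genes. It is the library with 24440 TPM of muscle transcripts, whose part in the result was not tested. Replicate 6 of the LFD vehicle females (8 of 10 members, 14.5% of all genes) and replicate 4 of the HFD vehicle males (7 of 10, 10.4%) also led their groups.

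Across the 48 livers, with each group's mean subtracted, the other members were related to Saa1 to differing degrees. Saa2 followed it most closely (Pearson r = 0.986, Spearman rho = 0.963), then Lcn2 (0.763 and 0.764) and Orm2 (0.753 and 0.707). Each had a permutation adjusted p of 3e-05 over the 9 relations, from shuffles within groups of which the smallest possible p is 1e-05. Hpx (0.653), Hp (0.598) and Saa3 (0.529) also passed by both measures (adjusted p of r 0.00015, 0.000112 and 0.000126). Saa4 was lower (r = 0.456, adjusted p = 0.00846, rho = 0.356, adjusted p = 0.0397). Orm1 (r = 0.445, adjusted p = 0.0223, rho = 0.22, adjusted p = 0.18) and Orm3 (r = 0.38, adjusted p = 0.00773, rho = 0.243, adjusted p = 0.118) passed by r and not by rho.

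The 2 livers farthest out in Saa1 are the single high livers of the LFD vehicle and HFD mixture males. Without them r was 0.974 for Saa2, 0.817 for Lcn2, 0.696 for Orm2, 0.67 for Hp, 0.634 for Hpx and 0.581 for Saa3. It was 0.372 for Saa4, 0.316 for Orm3 and 0.164 for Orm1. The relation of Orm1 rests on those 2 livers. With groups centred again after leaving them out, r no longer passed for Orm1 (0.0875, adjusted p = 0.63), Orm3 (0.306, adjusted p = 0.0891) or Saa4 (0.357, adjusted p = 0.0548). With the 3 muscle-containing libraries left out it did not pass for Orm1 (0.385, adjusted p = 0.131) or Saa4 (0.34, adjusted p = 0.0916). Within the 8 groups, r was above 0 in 8 of 8 for Saa2 (0.952 to 0.997), Lcn2 (0.55 to 0.981), Orm2 (0.532 to 0.987) and Hp (0.0911 to 0.904), and in 4 of 8 for Orm1 (-0.725 to 0.963). Saa1 and Saa2 share sequence, which bears on their relation.

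**Figure D5:**
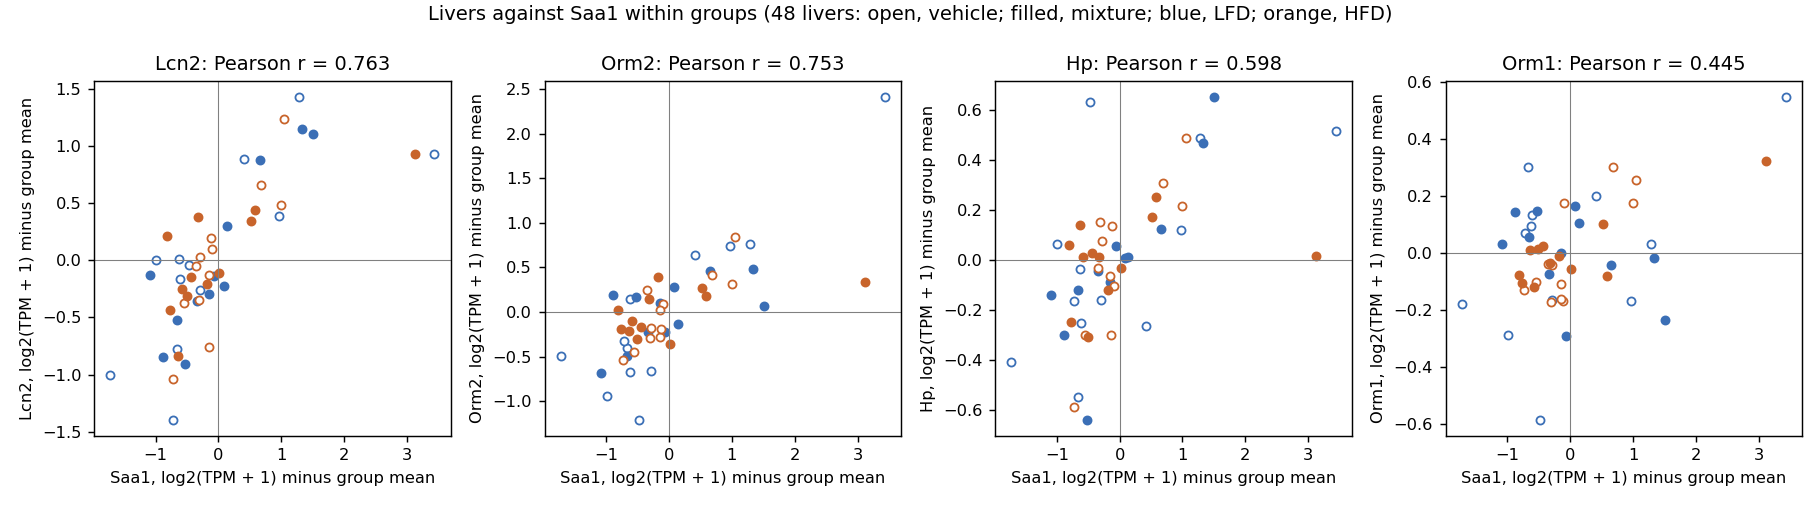
Each point is 1 of 48 livers, with log2(TPM + 1) minus its group mean for Saa1 on the horizontal axis and for Lcn2, Orm2, Hp or Orm1 on the vertical axis, open for vehicle, filled for the mixture, blue for LFD and orange for HFD. The 2 points above 3 on the horizontal axis are the single high livers of the LFD vehicle and HFD mixture males, and Lcn2 and Orm2 rise along Saa1 among the other 46 livers as well.

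As a description, the non-member genes whose group-centred levels were most like each member over the 48 livers were also listed, 3 a member by Pearson r. Fgl1, a secreted fibrinogen-like protein of the acute phase, came first for Orm1 (r = 0.645), Orm2 (0.626), Saa1 (0.638) and Saa2 (0.602). Serpina3n, a protease inhibitor (0.692), and Lrg1, a leucine-rich plasma glycoprotein (0.648), were most like Lcn2, and Jund (0.744) and Lrg1 (0.724) most like Hp. Next came Engase (0.646) for Lcn2 and Mrpl17 (0.699) for Hp. After Fgl1 came Ifitm2 (0.543) and Fabp5 (0.54) for Orm1, and Cxcl14 (0.543) and Serpina3n (0.533) for Orm2. For Saa1 Fgl1 was followed by Lrg1 (0.604) and Arl3 (0.59), and for Saa2 by Dusp8 (0.586) and Arl3 (0.58). Orm3 and Saa4 had other neighbours: Glt1d1 (0.706), Gpcpd1 (0.684) and Nrg4 (0.669) for Orm3, and the amino acid enzymes Hpd (0.78) and Ivd (0.723) and the lipid enzyme Gpat4 (0.711) for Saa4. Saa3 was most like Nedd8 (0.628), Ndufa2 (0.619) and Timm8b (0.61), and Hpx like Fcgr3 (0.649), Bik (0.644) and Pilrb2 (0.612). All 48 values share their libraries, so composition of a liver sample enters each r.

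Other genes of the response did not move as the members did. Members and lists were both chosen with earlier results of these data known, so this contrast too is only a description. Of 26 other positive acute phase genes, all tested, 9 rose and 7 fell on the HFD in vehicle males, and 3 and 11 in vehicle females. With the mixture, 8 rose and 8 fell in males, and 3 and 8 in females. The 4 median changes were 0.079, -0.224, 0.097 and -0.182. Of all 15820 genes tested, 4043 (25.6%) rose and 920 fell in vehicle males, and 2281 (14.4%) and 2143 in vehicle females. With the mixture, 5010 (31.7%) rose and 1095 fell in males, and 1814 (11.5%) and 1225 in females. Counts without scaling in this list and in the lists and cell markers below are to be read beside these, and a count near its share says nothing particular about a list. The fibrinogen chain genes fell in all 4, Fgb by 0.61, 0.63, 0.71 and 0.69 (SE 0.09), with Fga falling by 0.50 to 0.67 and Fgg by 0.41 to 0.57. Itih3, which binds hyaluronan, fell in all 4 (-0.77 to -1.05), and so did Hamp, the iron hormone hepcidin (-0.86, -1.38, -2.04 and -1.59). Apcs, the pentraxin serum amyloid P, fell in vehicle males (-0.82), vehicle females (-1.20) and females given the mixture (-1.13). Il1rn, the interleukin-1 receptor antagonist, rose in all 4 (0.99, 0.48, 0.95 and 0.47), and Apoa4 rose in males (1.80 and 2.25, against 0.05 and 0.14 in females, a difference not tested here). None of the 26 changed with the mixture.

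Genes known to fall in the acute phase split in direction. Of 16 such genes, 2 rose and 6 fell on the HFD in vehicle males, 4 and 5 in vehicle females, 0 and 9 in males given the mixture, and 4 and 5 in females given the mixture. Alb fell by 0.60, 0.73, 0.49 and 0.47, Apoa1, the main protein of high-density lipoprotein, by 0.85, 0.57, 0.67 and 0.88, in vehicle males, vehicle females, mixture males and mixture females. Ahsg, the fetuin-A gene, fell by 0.64, 0.34, 0.75 and 0.35. Antithrombin (Serpinc1, -0.15 to -0.37) and Itih2 (-0.29 to -0.59) also fell in all 4, and Fetub fell in males (-0.58 and -0.48). Cyp7a1, which starts bile acid synthesis, rose in females (2.51 and 2.52), as did Serpina6, which carries corticosteroids (1.45 and 1.51), and Hrg (0.58 and 0.47). With scaling, 0 rose and 10 and 11 fell in the 2 male comparisons, and the Cyp7a1 rise in vehicle males (1.07, adjusted p = 0.0157) did not pass (0.92, adjusted p = 0.0549).

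Of the main inducing cytokines, Il6 and Tnf (median 0.243 TPM) were at or near 0, while the interleukin-1 gene Il1a was at 2.27 to 10.9 TPM. Il6 had a median of 0.0608 TPM and a highest value of 0.256, and it was left out of the fit by the filter with Tnf, Osm, Lif, Il11 and Il22. Of the 15 cytokine and receptor genes tested (of 21), 6 rose and 2 fell on the HFD in vehicle males, 1 and 4 in vehicle females, 6 and 3 in males given the mixture, and 1 and 2 in females given the mixture. With scaling 2, 1, 3 and 2 rose and 3, 4, 5 and 2 fell. Il1b rose in vehicle males (0.76, adjusted p = 0.0446), vehicle females (0.78, adjusted p = 0.0412) and females given the mixture (0.82, adjusted p = 0.043), the first not with scaling (adjusted p = 0.0947). Tlr2, a receptor for bacterial lipoproteins, rose in males (0.78 and 1.17), and Lifr, a receptor of the interleukin-6 family, fell (-0.94 and -1.28). Il6ra and Il6st, the interleukin-6 receptor chains, fell in vehicle females (-0.68 and -0.36).

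Of 22 signal transducers and transcription factors, 7 rose and 2 fell in vehicle males, 4 and 4 in vehicle females, 4 and 1 in males given the mixture, and 2 and 2 in females given the mixture. With scaling 4, 4, 2 and 2 rose and 3, 4, 5 and 2 fell. Relb (0.62, 0.52, 0.75 and 0.60) and Nfkb2 (0.49, 0.30, 0.63 and 0.30), the non-canonical NF-kB subunits, rose in all 4. Hnf4a, a master regulator of hepatocyte genes, fell in all 4 (-0.33, -0.67, -0.59 and -0.47). Stat3 fell in females (-0.49 and -0.30) and differed by 0.01 and -0.12 in males, the second of which passed with scaling (-0.31, adjusted p = 0.0211). Of 20 early targets of interleukin-6 and NF-kB, 4 rose and 2 fell, 1 and 2, 4 and 5, and 2 and 1 in the same order. The chemokine Cxcl10 rose in all 4 (1.44, 1.06, 0.91 and 1.08). Ccl2 (2.24 and 2.03) and the NF-kB feedback gene Tnfaip3 (0.75 and 0.82) rose in males, Ccl2 also in females given the mixture (1.06), and Cish, a feedback inhibitor of STAT5, fell there (-1.20 and -2.19). Of 11 tested partners and clearance genes of the members (of 14), 2 rose and 1 fell, 1 and 3, 4 and 1, and 1 and 2. Cd36, a scavenger receptor, rose in all 4 (2.97, 0.88, 2.85 and 0.76). Apom, a lipocalin carried by high-density lipoprotein, fell in all 4 (-1.51, -0.57, -1.34 and -0.46). Cd163, the receptor for haptoglobin with hemoglobin, fell in females (-1.66 and -0.90). Hmox1, which degrades heme, rose in males (0.53 and 0.82, the first not with scaling, adjusted p = 0.105). In these last 4 lists too, 0 genes changed with the mixture.

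Markers of other cells moved with diet beside these genes, and their part in the results was not tested. In a bulk sample, fewer cells of a type and less RNA per cell cannot be told apart. Summed hepatocyte markers (6 genes) were at 103700 to 153500 TPM in LFD livers and 64340 to 101000 in HFD livers. Neutrophil markers, the other main source of Lcn2, summed over 12 genes to 2.057 to 14.19 TPM on the LFD and 4.266 to 17.99 on the HFD, with Ly6g at 0 in 43 of 48 libraries. In the fit 1, 0, 3 and 0 of the 3 tested genes rose in vehicle males, vehicle females, mixture males and mixture females. Macrophage markers, of a cell that expresses Saa3, rose for 6, 0, 8 and 3 of 11 genes in that order. Their sums were at 239 to 1567 TPM on the LFD and 524 to 1877 on the HFD. In the same order the median sum went from 439.7 to 668.7, 848.7 to 763.6, 440.5 to 683.1 and 822.2 to 937.0 TPM. It was thus lower on the HFD in vehicle females. Stellate and fibroblast markers rose for 6, 0, 7 and 2 of 7, with 1 falling in vehicle females. Of 5 tested adipocyte markers (of 9) 3, 3, 2 and 1 rose and 1, 0, 1 and 1 fell, while Adipoq was at 0 in 24 libraries and Lep in 38. The median sum of the 9 went from 1399 to 2179, 404.1 to 2351, 1430 to 1946 and 412.4 to 2082 TPM. Without the 3 libraries with muscle transcripts, the members called on the HFD numbered 8, 7, 8 and 7. Genes called in all numbered 5201, 4417, 6077 and 2956 there.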

How the data were processed

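Liver RNA of 48 C57BL/6J mice was measured, with polyA-selected libraries in 8 groups of 6. The authors deposited TPM values per gene. Per the submitters' processing notes the tools were FastQC, Trimmomatic 0.36, STAR 2.5.2b and DESeq2 and the build GRCm38, with no role stated, and the notes do not say how reads shared by gene copies were counted. TPM sums to 1000000 per library, so depth is unknown and no counting error can be given.

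From the TPM, limma 3.58.1 (R 4.3.3) was fitted to log2(TPM + 1) of the 15820 genes at 1 TPM or more in at least 6 libraries, with 8 group means and a mean-dependent prior. Fold changes on this scale understate those of low genes. Benjamini-Hochberg adjustment was made over all genes of a comparison, with 0.05 as threshold, over 21 comparisons. Fitting was tested on simulated data. Copy sums and the Orm1 share were tested by exact permutation over samples, two-sided, adjusted over 12 and 4 comparisons, and relations to Saa1 by 100000 shuffles within groups, two-sided (Python 3.11.15, scipy 1.17.1). Alternatives were a trimmed-mean scaling (30% of log ratios and 5% of abundances trimmed), no filter, a pseudocount of 0.1, a replicate block, only the groups compared, and fits without some libraries. Libraries with the same replicate number in different groups did not deviate together (mean correlation 0.017 over 168 pairs, against -0.003 for other pairs). Replicate numbers were therefore not used as pairs. Whether libraries that share an animal number in their library names deviate together was not tested.

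Members and gene lists were chosen with earlier results of these data known. Up to 4 called genes a list and comparison with the smallest p were eligible to be named. No label says how livers were processed in batches, so p-values measure the spread between libraries. In all, 174 rows of the table had no gene name, and no 2 libraries were identical (highest correlation 0.9894). Promoters came from RefSeq and gene positions from GENCODE.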

Additional observations from a re-analysis of the deposited data

Results flagged for a closer look

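In 6 of 80 combinations of member and group, 1 liver stood apart from the other 5 by a Dixon gap test, where chance alone gives about 1 group in 20. Among HFD males given the mixture, replicate 6 was high for Saa1 (2422 TPM against 158 to 221 in the others), Saa2 (2018 against 107 to 163) and Orm1 (2106 against 1549 to 1696), and replicate 2 of that group was low for Hp (4083 TPM against 4891 to 5353). Replicate 4 of the HFD vehicle males was high for Saa1 (316.7 TPM against 124 to 148), and replicate 3 of the LFD vehicle males for Saa2 (289 TPM against 6.53 to 26.3).

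The diet change differed between the sexes by limma's interaction term for Lcn2 with vehicle (-1.83, females minus males) and with the mixture (-2.88), and for Orm3 with the mixture (-1.28).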

How the results depend on the processing

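With scaled libraries, 5 rather than 8 members were called on the HFD in vehicle males (3894 rather than 4963 genes in all). Leaving out single livers gave 5 to 8 members, with 5 only without replicate 6 of the LFD group. Between the sexes on the HFD with the mixture, a fit of only the 2 groups called 3 members and all groups together 0 (2043 and 2419 genes in all). For the diet change by sex with the mixture, 1 member was called without a filter against 2, and 1 to 3 with single livers left out. The summed Saa1 and Saa2 in vehicle males differed by 2.57 without the 2 livers highest in Saa1. The relation of Saa1 to Orm1 was 0.385 on leaving out the 3 muscle-containing libraries and 0.0875 on leaving out the 2 livers, that to Saa4 0.34 and 0.357, and that to Orm3 0.306 without the 2 livers, none of them past the threshold. The causes were not tested. With a replicate block, 8, 7, 9 and 8 members were called in the 4 diet comparisons, as without it, and the block added 1 call, Saa4 in the diet change by sex with the mixture (adjusted p = 0.0318).

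Over the 61 member comparisons called in any setting, 383 of 414 alternative values kept direction and call, 21 lost the call, 10 gained it and 0 reversed. Leaving out single livers kept 1195 of 1260, with 45 lost, 20 gained and 0 reversed. Read depth is unknown, so the precision of Saa3 and of the LFD levels of Lcn2 and Orm3 cannot be given from counts.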
